A study of Homo sapiens with 2 samples.

Results

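The peaks described here are all regions of chromosome 7 that the authors called as bound by ASH1, taken by position alone. They are every entry of the 2 deposited peak lists on the assembled chromosome 7, which was picked with earlier results of these data known. There were 31 such peaks among the 910 of replicate 1 and 324 among the 4646 of replicate 2, 355 of 5556 in all. ChIP-seq, in which DNA bound by a protein is pulled down with an antibody and sequenced, was done in K562, an established human chronic myelogenous leukaemia cell line, grown without any further treatment. Both samples belong to 1 group, and no other condition was studied. Replicate 1 was precipitated with batch 1 and replicate 2 with batch 3 of a rabbit polyclonal antibody made in-house against the C-terminal end of the protein, so replicate and antibody batch cannot be told apart. How deeply either library was sequenced is unknown. With 1 sample per batch there is no spread between repeats, so intervals below are exact Clopper-Pearson 95% intervals that cover counting error only. Neighbouring peaks are not independent, so p-values describe the 2 lists and not the spread between experiments. Where a list has no peak, none was detectable at its threshold, which does not show that ASH1 was absent.

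ASH1 (gene symbol ASH1L) is a histone H3 lysine methyltransferase with a SET domain. It belongs to the trithorax group, proteins first known for keeping developmental genes such as the HOX genes active. Chromosome 7 carries the HOXA cluster on its short arm. Its outermost long-arm band, 7q36.3, runs from position 155100001 to the chromosome end at 159138663 (hg19) and is a light-staining Giemsa band, the class that is rich in genes and in GC. In the gene order of RefSeq on assembly GRCh38.p14, 17 protein-coding genes lie between EN2 and the long-arm end. Among them, in this order, are EN2 (a homeobox transcription factor of the midbrain and hindbrain), SHH (the secreted morphogen Sonic hedgehog), LMBR1 (whose intron holds the limb enhancer of SHH), MNX1 (a homeobox factor of motor neurons and pancreas), PTPRN2 (a phosphatase-like protein of secretory vesicles) and, last, VIPR2 (a receptor for vasoactive intestinal peptide). That table has another build than the peaks, so no peak was assigned to a gene, and positions below are given by band and by hg19 coordinate.

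Each peak carries the authors' score, which rises with the confidence of the call and with sequencing depth. The lists do not start at the same score: on chromosome 7 the lowest was 50.07 in replicate 1 and 70.27 in replicate 2. Median scores were 63.47 (quartiles 56.55 and 75.46, highest 113.76) and 155.6 (quartiles 100.0 and 261.2, highest 1597.67). Only 10 of the 31 replicate 1 peaks reached a score of 70. Median widths were 938 bp in replicate 1 and 1074 bp in replicate 2, and the peaks covered 33.12 kb and 405.5 kb, or 0.0208% and 0.255% of the chromosome.

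The 2 lists placed chromosome 7 on opposite sides of its share of length. The chromosome makes up 5.14% of the 24 assembled chromosomes. Of the replicate 1 list 3.43% lay on it, a fold of 0.666 over length (0.455 to 0.939; exact binomial test, adjusted p = 0.031 by Benjamini-Hochberg over 24 chromosomes). Of the replicate 2 list 7.05% lay on it, a fold of 1.37 (1.23 to 1.52; exact test, adjusted p = 6.6e-08). In that test 70.8% of chromosomes were called in replicate 1 and 62.5% in replicate 2, in either direction, so a call is common. Neither call held in all settings. Restricted to scores of 70 and above, replicate 1 gave 0.577 (exact test, adjusted p = 0.15). With the replicate 2 list cut to as many peaks as replicate 1 it was 1.34 (exact test, adjusted p = 0.061).

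Peaks shared by both lists, meaning an overlap of at least 1 bp, were 21 of the 31 in replicate 1 (67.7%, 48.6 to 83.3%) and 20 of the 324 in replicate 2 (6.17%, 3.81 to 9.37%). On the 23 other assembled chromosomes the shares were 50.9% (47.5 to 54.3%) and 10.3% (9.38 to 11.2%). The differences from chromosome 7 were not tested. Chromosome 7 ranked 7th of the 24 chromosomes by this share in replicate 1 and 21st in replicate 2. The lowest in replicate 1 were chromosomes 6 (28.3% of 120 peaks) and 5 (29.2% of 96). All 10 peaks of replicate 1 that scored 70 or more were shared, against 11 of the 21 below it. With the replicate 2 list cut to the size of replicate 1, 48.4% and 22.6% were shared. One replicate 2 peak in 7p21.2 spanned 2 replicate 1 peaks, which is why the counts differ by 1.

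Along the chromosome the replicate 2 bands that passed the test lay at both ends, at the start of the long arm and in 7p12.3. In replicate 1 a single band passed it. In replicate 2 the 7 bands called higher than their length share were 7p22.3 at the short-arm end, 7p12.3, 7q11.1 and 7q11.21, and 7q36.1, 7q36.2 and 7q36.3 at the long-arm end (exact binomial test over 862 bands, adjusted p below 0.05). These are 15.9% of the 44 bands of the chromosome, where 10.8% of all bands were called higher. The 5 bands called lower, 7p21.3, 7p15.3, 7q21.11, 7q21.3 and 7q31.1, are 11.4%, near the 10.4% of all bands. In replicate 1 the only band called was 7q36.3, 2.27% of the bands against a background of 3.94%, and it was the only chromosome 7 band called in both lists, 2.27% against 2.78% of all bands. That band was picked with its counts known, so its calls here and those of its bins are given as a description. Once scores below 70 were dropped it was no longer called in replicate 1. Bands 7p21.3, 7p15.3, 7p15.1 and 7q22.2 held no peak of either list.

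**Figure D1:**
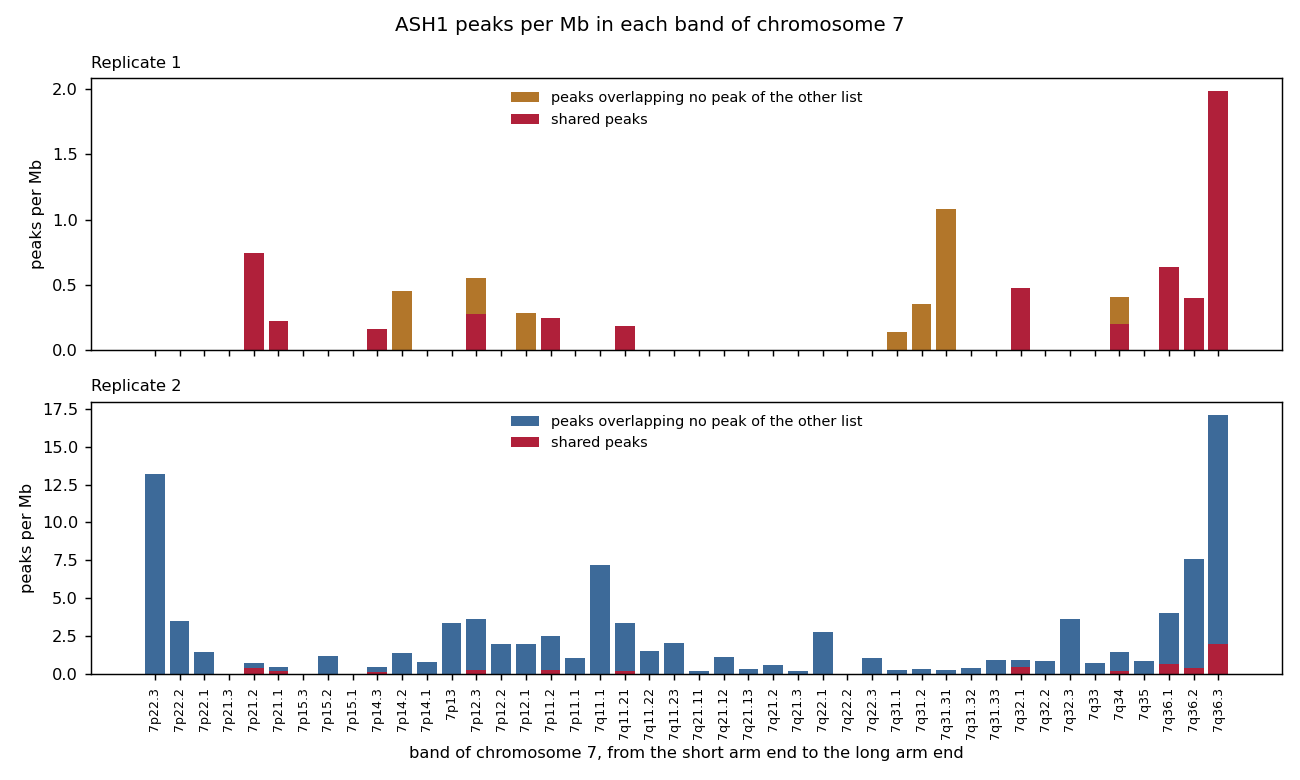
Peaks per Mb (vertical axes, different scales) in the 44 bands of chromosome 7, ordered from the short-arm to the long-arm end, for replicate 1 (top) and replicate 2 (bottom); the red part of a bar counts shared peaks. The tallest bar of either list is 7q36.3, at 1.98 and 17.1 peaks per Mb, while 7p22.3, at the other end, stands at 13.2 in replicate 2 and at 0 in replicate 1.

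The band 7q36.3 held 8 of the 31 replicate 1 peaks (25.8%, 11.9 to 44.6%) and 69 of the 324 replicate 2 peaks (21.3%, 17.0 to 26.2%) on 2.54% of the chromosome. The density was 1.98 peaks per Mb there and 0.148 on the rest of the chromosome in replicate 1, a ratio of 13.4 (5.17 to 30.9). Counting only the 10 replicate 1 peaks that reached 70, this ratio was 25.6 (5.31 to 108). In replicate 2 it was 17.1 and 1.64 peaks per Mb, a ratio of 10.4 (7.85 to 13.6). The intervals of both ratios overlap. With the replicate 2 list cut to the size of replicate 1, its ratio was 15.7. Among all 862 bands it ranked 2nd by peaks relative to length in replicate 2 and 24th in replicate 1. Peaks covered 2.56% of the band in replicate 2 and 0.195% of the rest.

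By bins of 1 Mb, 12 of the 160 bins of chromosome 7 (7.50%) were called higher in replicate 2, where 4.98% of the 3113 bins of all chromosomes were (exact one-sided binomial test, adjusted p below 0.05). With the list cut to the size of replicate 1, 3 bins were called. Of the 12 bins, 4 were those centred in 7q36.3, the band picked with its counts known. Without that band's bins the called share was close to that of all chromosomes. Those 4 bins held 14, 9, 23 and 25 peaks from position 155000001 on. The last of them, 158000001 to 159000000, held more replicate 2 peaks than any other bin of the genome, and the bin before it came next; the third fullest, elsewhere, held 22. In replicate 1 the same 4 bins held 1, 2, 2 and 3 peaks, all shared. The highest count of any chromosome 7 bin in replicate 1 was 3, also reached in 7q31.31 by the bin from 118000001, where 0 of the 3 were shared. The other called bins lay at the short-arm end (21 and 14 peaks in the outermost 2 bins) and in 7p12.3 (7 each from 45000001 and 47000001). On the long arm, the bin from 61000001 held 14 peaks, 13 of them inside the centromere band 7q11.1. The bin from 66000001 in 7q11.21 held 7. Those from 151000001 in 7q36.1 and 154000001 in 7q36.2 held 8 each. No peak of either list lay in 67 bins.

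Within 7q36.3 the replicate 2 peaks were denser in the outer part, without a steady rise toward the chromosome end. By 1 Mb step inward from that end there were 21, 25, 7 and 14. From the band's start to position 157000000 there were 21 peaks, or 11.1 per Mb, with a median score of 161.4. From 157000001 on there were 48, or 22.4 per Mb, with a median score of 237.3. The split at a bin edge was made after the values were seen, and the difference was not tested. Of the replicate 1 peaks, 3 lay in the inner and 5 in the outer part. Neighbouring replicate 2 midpoints were a median of 35.8 kb apart in the band (quartiles 16.6 and 73.1 kb), against 184 kb on the rest of the chromosome. The longest stretch of the band without a replicate 2 peak was 393 kb, from 156381158 to 156774541. The outermost peak of replicate 2 ended 178.8 kb from the chromosome end and that of replicate 1 198.8 kb from it, so neither list had a peak directly at the telomere of this arm. The peaks were mostly single: merging those closer than 10 kb left 61 of the 69, with no group of more than 2.

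**Figure D2:**
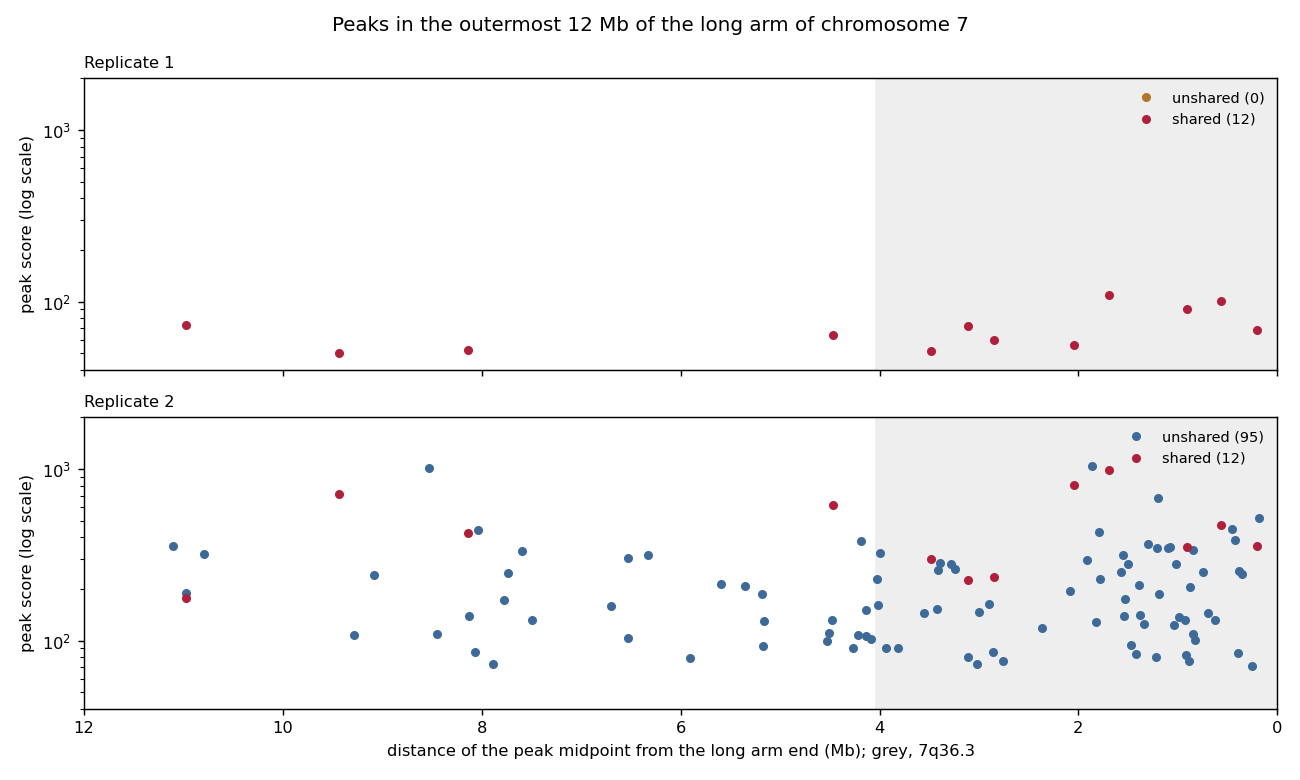
Authors' peak score (log scale) against distance of the peak midpoint from the long-arm end, in Mb, over the outermost 12 Mb, for replicate 1 (top) and replicate 2 (bottom); red points are shared peaks and the grey field is 7q36.3. All 12 replicate 1 peaks in view are shared, while 95 of the 107 replicate 2 peaks are not. Shared peaks are 11.2% of those 107, where 10.3% were shared on the 23 other assembled chromosomes.

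All 8 replicate 1 peaks of 7q36.3 were shared (100%, 63.1 to 100%), against 13 of 23 on the rest of the chromosome (56.5%, 34.5 to 76.8%). All 12 from 7q36.1 to the chromosome end were shared, against 9 of the 19 before 7q36.1. That cut was chosen with earlier results known. The intervals of 7q36.3 and the rest overlap, and neither difference was tested. In replicate 2, 8 of 69 peaks in the band were shared (11.6%, 5.14 to 21.6%) and 12 of 255 elsewhere on the chromosome (4.71%, 2.45 to 8.08%). The intervals overlap and the difference was not tested. On the 23 other assembled chromosomes 10.3% of replicate 2 peaks were shared, near the share in the band. Median scores in the band and on the rest of the chromosome were 70.31 and 61.82 in replicate 1 and of 209.5 (quartiles 124.3 and 315.0) and 150.3 (97.87 and 252.3) in replicate 2. A score of 200 or more was reached by 36 of the 69 (52.2%, 39.8 to 64.4%) and by 86 of the other 255 (33.7%, 27.9 to 39.9%). The shares lay closer together at a lower and at a higher cut. A score of 100 or more was reached by 56 of the 69 and 187 of the 255, and 400 or more by 8 and 23. The excess thus depended on the cut and was small among the strongest peaks. Widths of 2 kb or more were found in 12 of the 69 (17.4%) and in 18 of the 255 (7.06%). Replicate 2 peaks of the band were thus higher and wider at the median, and neither difference was tested.

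The 8 shared sites of 7q36.3 are given from the inside outward. The innermost lay at 155650964 to 155651801, with a score of 51.38 in replicate 1 and 297.47 in replicate 2. Next, 156030192 to 156030932 scored 72.18 and 225.3. The site at 156291436 to 156292315 scored 59.63 and 233.48. These 3, in the inner part of the band, had the lowest replicate 2 scores of the 8. The site at 157091168 to 157092867 stood at only 55.44 in replicate 1 but at 802.62 in replicate 2, a ratio of 14.5. At 157449684 to 157450854 both scores were the highest among the 8, 109.27 and 989.21, and this site also had the highest mean percentile of score of all shared sites on the chromosome. The site at 158234004 to 158234866 scored 90.68 and 353.34. The last pair were the 2577 bp peak at 158573373 to 158575949, with 100.41 and 473.8, and the outermost site at 158938957 to 158939894, with 68.45 and 354.69. All 8 peaks were wider in replicate 2, and 7 of the replicate 1 peaks lay wholly inside their replicate 2 partner.

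In replicate 2 the shared peaks of the band had a median score of 354.0 and its unshared peaks one of 173.6, against 421.3 and 148.7 on the whole chromosome; these differences were not tested. All 8 shared peaks were among the 36 that scored 200 or more. Some unshared peaks scored as high: among the band's 10 highest replicate 2 peaks 3 were shared, and 26 unshared peaks scored above the lowest shared one. The highest peak of the band, at 157273643 to 157276015, scored 1037.91 in replicate 2 and lay 174 kb from the nearest replicate 1 peak. Other strong unshared peaks were at 157939218 to 157942168 (678.46) and at 158958049 to 158959826 (520.49), the outermost of all.

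The other 13 shared replicate 1 peaks were spread over 10 bands. In 7p14.3, the site at 30154947 to 30155988 had a score of 95.93 in replicate 1 against 1395.7 in replicate 2, the second highest replicate 2 score on the chromosome. The 7q32.1 site at 128527354 to 128528461 had the highest replicate 1 score, 113.76, with 451.78 in replicate 2. In 7p21.2, neighbouring replicate 1 peaks at 16436289 to 16438253 and 16438349 to 16439899 (78.26 and 109.71) fell under 1 replicate 2 peak of 4548 bp with a score of 392.96. High replicate 1 scores thus occurred outside 7q36.3 as well. In 7q11.21, 64894509 to 64896156 scored 89.5 and 420.69, and in 7p11.2, 55271695 to 55272770 scored 63.93 and 556.63. The 7p12.3 site at 47513637 to 47515157 stood at 64.61 and 201.05, and the 7p21.1 site at 18772153 to 18772719 at 51.89 and 537.72. The next sites approach 7q36.3 from the inside. Band 7q36.2 held 154674562 to 154675328, at 63.47 and 616.04. Band 7q36.1 held 3: 148158621 to 148159503 (72.66 and 175.96), 149700189 to 149701352 (50.07 and 711.16) and 150996315 to 150997163 (52.43 and 421.99). The 7q34 site at 143082147 to 143083085 had the lowest replicate 2 score of the shared sites, 135.65, with 57.66 in replicate 1. The 149700189 peak was the weakest of replicate 1 on this chromosome, while its replicate 2 partner ranked 11th of 324.

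In all 21 pairs the replicate 2 score was the higher, by a median ratio of 5.02 (lowest 2.35, highest 14.5). The median ratio was 4.95 in the 8 pairs of 7q36.3 and 5.02 in the 13 others, and the difference was not tested. Across the pairs the scores gave a Spearman's rho of 0.07 and Pearson's r of 0.23 on log10 scores (n = 21 pairs of the same 2 libraries, given as a description). Midpoints of a pair lay a median of 88.0 bp apart (lowest 5.50, highest 1068 bp).

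**Figure D3:**
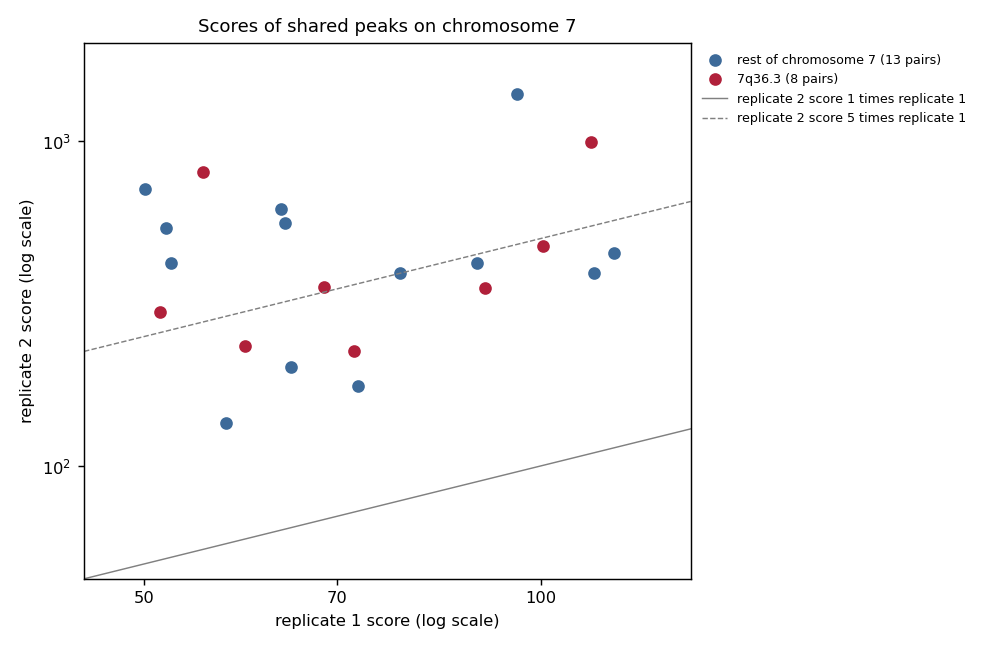
Replicate 2 score against replicate 1 score (both log scales) for the 21 overlapping pairs on chromosome 7, with 7q36.3 in red; the solid line marks equal scores and the dashed line a ratio of 5. Every pair lies above the line of equal scores, and the 8 red points are spread among the 13 others.

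Of both chromosome ends, the long-arm end alone held replicate 1 peaks, while replicate 2 had peaks at both. The outermost 5 Mb of the short arm held 45 replicate 2 peaks, 9.0 per Mb, but 0 of 31 replicate 1 peaks, and 0 of the 45 were shared. A limit of 3 counts puts these shares at up to 9.68% and 6.67%, and the exact intervals reach 11.2% and 7.87%. The outermost 5 Mb of the long arm held 79 replicate 2 peaks, or 15.8 per Mb, and 9 replicate 1 peaks, all shared. Replicate 2 peaks had a median score of 167.3 (quartiles 103.6 and 231.6) at the short-arm end and 186.6 (110.1 and 306.2) at the long-arm end. The shared ones among the latter had a median of 354.7. Whether score bears on sharing here was not tested. At the short-arm end the highest peak was at 944801 to 946445 (714.33). It was followed by 23526 to 25027 (606.21) and 9836 to 10551 (569.99), the latter beside the telomere. Band 7p22.3, home of PDGFA (a platelet-derived growth factor chain), held 37 of these, a fold of 8.90 over length (6.27 to 12.2; exact binomial test, adjusted p = 4.8e-21), and ranked 12th of 862 bands. Whether the ends differ in the share of peaks found in both lists was not tested.

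**Figure D4:**
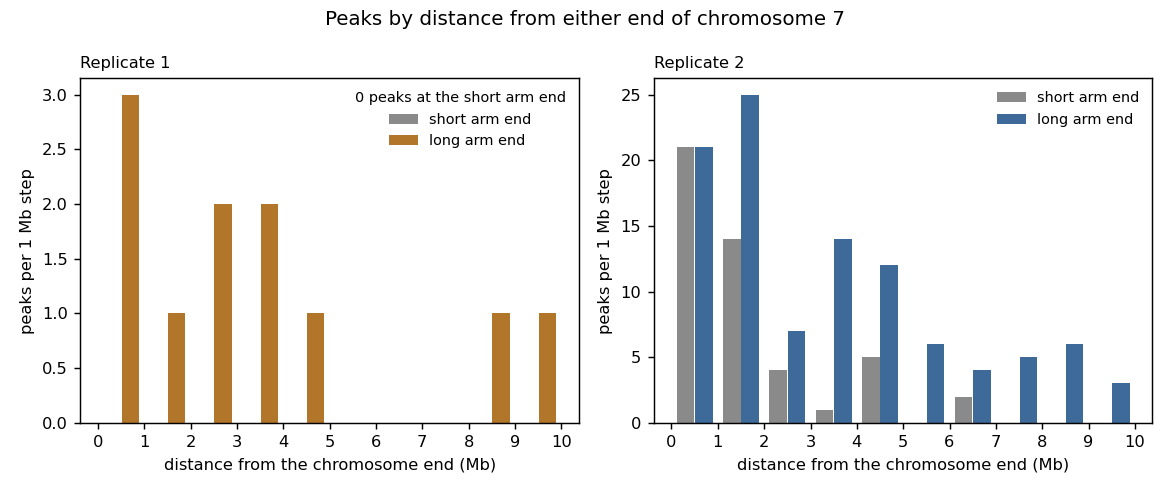
Peaks per 1 Mb step (vertical axes, different scales) against distance from the chromosome end, in Mb, over the outermost 10 Mb of the short arm (grey) and of the long arm (coloured), for replicate 1 (left) and replicate 2 (right). Both ends hold 21 replicate 2 peaks in the outermost step, and from the second step on the long-arm end holds more; replicate 1 has peaks at the long-arm end only.

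As wholes the arms gave ratios of density whose intervals all include 1 in the full lists. Replicate 1 had 9 peaks on the short arm (0.155 per Mb) and 22 on the long arm (0.226 per Mb), a ratio of 1.46 (0.644 to 3.59). Replicate 2 had 105 (1.81 per Mb) and 204 (2.09 per Mb), a ratio of 1.16 (0.910 to 1.48). Without 7q36.3 the long arm stood at 0.966 (0.389 to 2.53) and 0.798 (0.614 to 1.04) times the short arm. With the replicate 2 list cut to the size of replicate 1, its ratio of long to short arm was 1.83 (1.00 to 3.52). Without the outermost 5 Mb of each arm the ratio was 0.828 (0.328 to 2.20) in replicate 1 and 1.19 (0.871 to 1.65) in replicate 2.

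The 2 centromere bands, from 58.0 to 61.7 Mb, held 15 of the 324 replicate 2 peaks (4.63%, 2.61 to 7.52%) and 0 of the 31 of replicate 1. The exact interval of the latter reaches 11.2% and so includes the replicate 2 share: a difference was not detectable. Of the 14 replicate 2 peaks in the bin from 61000001, 13 lay in 7q11.1 (4.86-fold over length, 2.59 to 8.31; adjusted p = 9.0e-05 in the exact binomial test). The strongest, 61054172 to 61056440, scored 1229.63, while the median of the 14 was 84.36. The nearest replicate 1 peak lay 3069 kb away from this group. In 7q11.21 the peak at 64953684 to 64956076 had the highest replicate 2 score of the chromosome, 1597.67, and was unshared although a shared site lay 57.5 kb away. Centromeric regions consist of repeats to which short reads map poorly; the part of mapping in these peaks was not tested.

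Between 7q11.21 and 7q31.1 replicate 1 had no peak over 44.2 Mb, from 64896157 to 109140895, while replicate 2 had 56. Of those, 16 lay in 7q22.1, with scores from 73.99 to 979.37, the highest at 100549845 to 100551725. Strong unshared peaks lay on the outer long arm too, at 145693925 to 145695044 in 7q35 (759.47) and at 150606322 to 150608580 in 7q36.1 (1015.41). Of the 10 highest replicate 2 peaks of the chromosome, 7 were thus unshared. The 10 unshared replicate 1 peaks of the chromosome all scored below 70, from 52.54 to 67.76, and lay between 40.1 and 1835 kb from the nearest replicate 2 peak. The highest 3 were 50625817 to 50626983 in 7p12.1 (67.76), 115820121 to 115821112 in 7q31.2 (67.35) and 109140896 to 109141528 in 7q31.1 (61.82). Another 4 of them formed a loose group of 845 kb in 7q31.31, from 118233194 to 119077963, with scores from 55.02 to 60.85. The fold of that band over length was 3.70 in replicate 1 (1.01 to 9.44; exact test, adjusted p = 0.38, not called) and a single peak in replicate 2. It is the band with the most unshared replicate 1 peaks on the chromosome.

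Band 7p15.2, which carries the HOXA cluster, held 3 peaks in replicate 2, a fold of 0.808 over length (0.167 to 2.36; exact binomial test, adjusted p = 1.0), and none in replicate 1. The 3 peaks lay between 26678985 and 26997631 and scored from 110.44 to 152.05, and none was shared. The bin from 27000001 to 28000000, also in this band, held no peak of either list. None of the 3 peaks was assigned to the cluster.

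By Giemsa staining, light bands make up 43.8% of chromosome 7 and held 20 of the 31 replicate 1 peaks (64.5%) and 224 of the 324 replicate 2 peaks (69.1%). Outside 7q36.3 they held 12 of 23 and 155 of 255. The darkest bands, 12.4% of the chromosome, held 1 and 4 peaks. The next darkest class, 29.2% of the chromosome, held 9 replicate 1 peaks (29.0%), close to its share of length, and 40 of the 324 replicate 2 peaks, below it. Most of these 9 were unshared, among them all 4 of 7q31.31. Differences between classes were not tested.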

How the data were processed

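ChIP-seq peaks of ASH1 in K562 cells were taken from the 2 deposited lists, 1 per sample and antibody batch. BWA and MACS were used and the builds hg19 and GRCh38 are named, per the submitters' processing notes; neither their versions nor the settings and control are given in the sources used here. Coordinates were read as hg19, since 33 and 164 peaks end past a chromosome's end in GRCh38 and 0 in hg19. The score of each peak is the authors' own value as deposited, read from its form as 10 times the negative log10 of the p-value, and it orders or thins peaks only inside its own list; ratios between lists are descriptive. Depth is unknown.

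Chromosome 7 peaks were counted by midpoint in 862 cytogenetic bands (circlize 0.4.16), in bins of 1 Mb and by arm. Counts of the 905 and 4596 peaks on 24 assembled chromosomes were compared with full hg19 length, assembly gaps included, by exact binomial tests adjusted by Benjamini-Hochberg over all chromosomes, bands or bins of a list. Copy number was not measured. Named are all shared sites, the 3 highest unshared peaks of each list, the 10 highest replicate 2 peaks and the called bins; other unshared peaks of 7q36.3, the 7q31.31 group, the short-arm end peaks, 7p15.2 and 7q22.1 were chosen after their values were seen. The members, bands and lists were chosen with earlier results of these data known. Another 3 replicate 2 peaks on an unplaced chromosome 7 sequence were left out. No hg19 genome was used here, so no sequence is shown and base composition was not computed. Alternatives varied the score minimum, list length, merging, overlap, bin edges and length used. The band test was tried on simulated lists of independently placed peaks, and the overlap rule on a small made-up example. Clustered peaks, as found here, and the other procedures were not simulated. Tests ran in scipy 1.17.1 with Python 3.11.15.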

Additional observations from a re-analysis of the deposited data

How the results depend on the processing

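Of 40 alternatives to 10 results, 6 left the list in question as it was and say nothing of stability. Of the other 34, 23 kept their call, stayed within the interval of the reported value or gave a nearby count of bands or bins. Among the last, 10 and 11 bins were called in place of 12. A reversal was counted only for length folds and for ratios whose interval excludes 1, and 0 were found. The replicate 1 ratio of long to short arm went from 1.46 to 0.828 without the outermost 5 Mb of each arm, inside its wide interval. Without peaks that score below 70, replicate 1 stood at 0.577 times its length share (exact binomial test, adjusted p = 0.15; 0.577 to 0.674 over the 3 settings that change its list), its ratio of 7q36.3 to the rest was 25.6, 100% of its peaks and 2.78% of replicate 2 peaks were shared, and 0 bands were called in both lists, since 10 replicate 1 peaks were left. With replicate 2 cut to the length of replicate 1, its length value was 1.34 (exact test, adjusted p = 0.061; 1.27 to 1.34 over the 3 settings that change its list), 48.4% and 22.6% were shared, the ratio of 7q36.3 to the rest was 15.7, that of the long to the short arm 1.83, and 3 bins were called in place of 12. Leaving out a replicate gave 1 to 7 called bands, since a call then needs 1 list. The results on sharing and on bands called in both need both lists, and the others were computed on 1 list each. No paired analysis was possible because both samples form 1 group.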
